A study of Mus musculus with 12 samples.

Results

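Transcripts of 7 aquaporins, Aqp1, Aqp2, Aqp3, Aqp4, Aqp6, Aqp7 and Aqp11, and of the vasopressin V2 receptor, Avpr2, were followed in mouse renal cortex. The genes were taken by annotated symbol, which gave 19 probe sets for these 8 genes among the 45101 probe sets of the array. ICGN mice, labelled as having nephrotic syndrome, were compared with ICR mice, labelled normal, at the ages of 4 and 8 weeks. Each of the 4 groups had 3 arrays, of the Affymetrix GeneChip mouse genome type. The ICGN strain came from ICR stock and carries a mutation of Tns2, and no treatment, transgene or deletion is named for any group. ICR is an outbred stock, so the groups differ in their whole genetic background and not at 1 locus. Whether each numbered replicate is 1 mouse or a pool is not stated, and the p-values reflect only how far these samples spread, which may be technical, and 3 arrays a group limit the precision of every value.

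Aquaporins are membrane channels for water, and some of them, the aquaglyceroporins Aqp3 and Aqp7 among those studied here, also pass glycerol. In the kidney Aqp1 lines the proximal tubule and thin descending limb, where most filtered water is taken back without hormonal control. In the principal cells of the collecting duct, vasopressin binds the V2 receptor on the basolateral side, cyclic AMP rises, and Aqp2 is moved into the apical membrane and transcribed more. Water then leaves the cell through Aqp3 and Aqp4 in the basolateral membrane. Aqp6 sits in vesicles of acid-secreting intercalated cells, Aqp7 in the straight part of the proximal tubule, and Aqp11 inside proximal tubule cells, at the endoplasmic reticulum. Loss of Aqp11 in mice gives cystic kidneys.

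The deposited signals are on a linear scale and were brought to a common array median of 40.4, since the arrays of the 2 ages had been scaled to different targets. Age differences are therefore read beside that processing, with which age cannot be told apart. Across genes, which are not independent replicates, r lay between 0.976 and 0.988 for arrays within a group. Tns2, the check on the strain labels, had a signal of 78.2 ± 15.9 in ICGN and 332 ± 12.96 in ICR at 4 weeks, and 74.2 ± 35.2 and 319.9 ± 14.6 at 8 weeks (mean ± SD, n = 3). Of the 19 probe sets 16 lay above their array median in at least 3 of 12 arrays and were tested, and each of the 8 genes had at least 1 of them. The 3 left out were a probe set each of Aqp3, Aqp6 and Aqp11 that exceeded the array median on 0 of 12 arrays. Each gene is represented by its brightest probe set, and these 8 lay above the array median on all 12 arrays. The proximal tubule identity of the tissue was plain in all groups, with all 16 genes of a proximal tubule list tested and a summed signal between 71201 and 133556 per array. Of 6 genes listed for inner medulla and urothelium all passed the same filter, at a summed signal of 258 to 581.

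Log2 fold changes are differences of log2(signal + 9) between group means, relative to the median tested gene of that comparison, with the standard error of the limma fit. A gene was called when its limma p-value, adjusted by Benjamini-Hochberg over all 12385 tested genes, was 0.05 or less. The test was made on the difference before the median gene was subtracted. An interval of the printed value can therefore lie off 0 without a call, or include 0 for a called gene. "Rose" and "fell" are used for called genes, for ICGN set against ICR or for 8 weeks set against 4. At 4 weeks 1 of the 8 genes rose (Aqp6) and 0 fell, where 2.99% of all tested genes were called, 1.59% of them higher and 1.4% lower. At 8 weeks 0 rose and 3 fell (Aqp1, Aqp3 and Aqp11), where 34.6% of all tested genes were called, 8.53% higher and 26.1% lower. The 3 of 8 genes called at 8 weeks are thus close to the share over all genes. At that age the median tested gene itself stood at -0.19 (log2). Of all called genes 24.7% were higher. That share became 39.2% after centring each array on its tested genes, 50.5% after quantile normalization and 59.98% on the deposited scale. The 3 arrays of a strain did not overlap those of the other for 1 of the 8 genes at 4 weeks and for 3 at 8 weeks, against 22.9% and 44.5% of all tested genes. The median log2 fold change of the 8 genes was 0.0048 at 4 weeks and 0.05 at 8 weeks, inside the middle range of all tested genes (-0.14 to 0.15 and -0.24 to 0.28 between the quartiles).

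**Figure D1:**
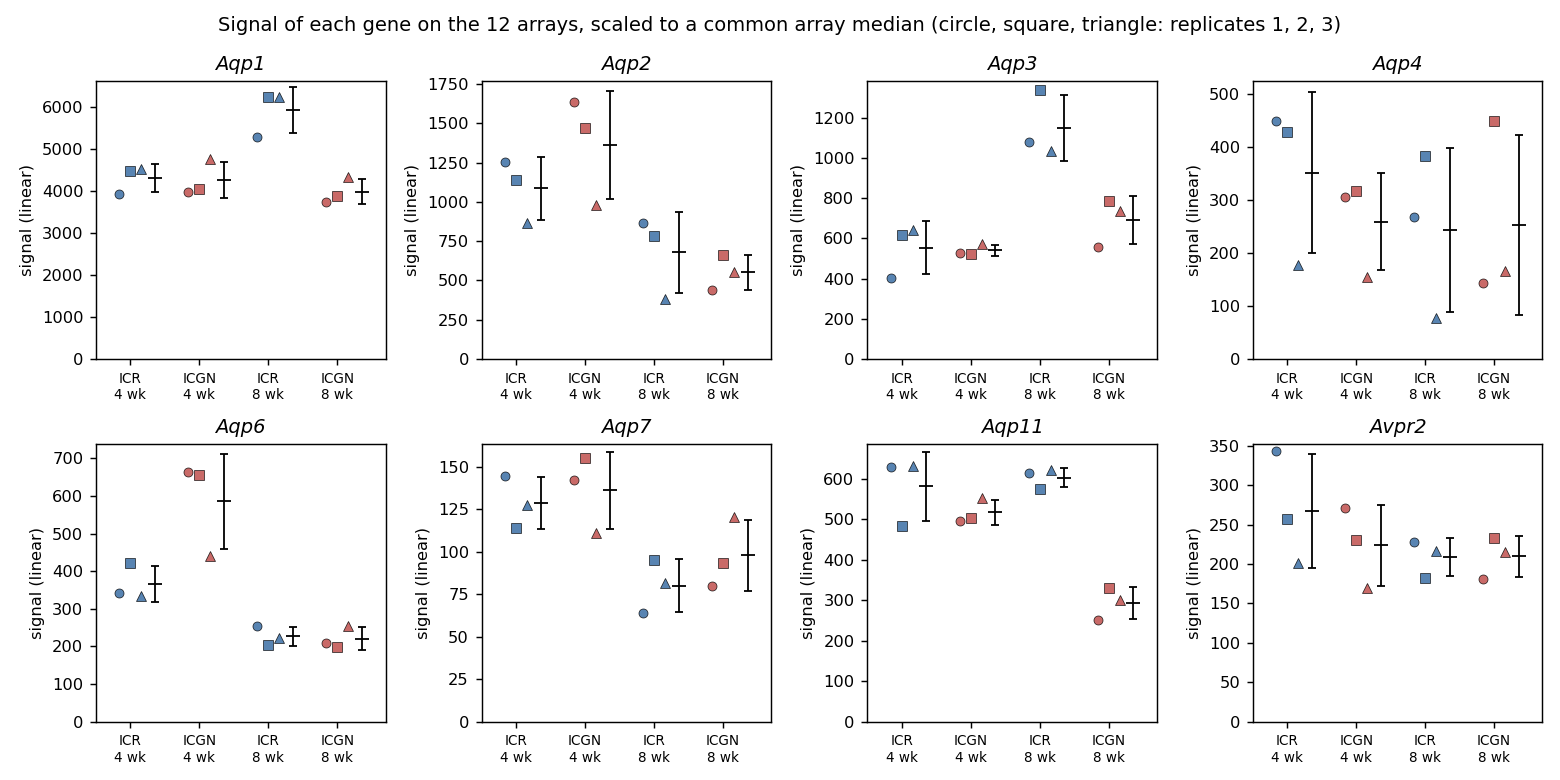
Signal (linear, y axis) of the 8 genes in each of the 12 arrays by strain and age (x axis). Points are arrays, horizontal marks the group means and bars 1 SD (n = 3). The ICGN arrays at 8 weeks lie apart from and below ICR for Aqp1, Aqp3 and Aqp11, and the ICGN arrays at 4 weeks lie above ICR for Aqp6, while Aqp4 spreads from 77.3 to 449.

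Upstream sequences are shown for the 3 genes that fell together at 8 weeks and for Aqp2, the gene on which vasopressin acts through cyclic AMP. Each run is the 250 bases before the RefSeq start of the gene on GRCm38.p6, 5′ to 3′ in the direction of transcription. Such a sequence was read for 7 of the 8 genes from a promoter table made from RefSeq. Aqp4 was not read, since the search left out its chromosome. Capitals mark matches to any of 4 short motifs searched on both strands. TGACGT is the core of the cyclic AMP response element, GATAAG is bound by the zinc finger factors named for it, GGGCGG is the core of a site for Sp1, and TATAAA is the core promoter element that binds Tbp. A match is a description of the letters and not a site shown to be used. The regions are chr6:55336049-55336298, plus strand for Aqp1, chr4:41098184-41098433, minus strand for Aqp3, chr7:97738248-97738497, minus strand for Aqp11 and chr15:99578806-99579055, plus strand for Aqp2.
Aqp1: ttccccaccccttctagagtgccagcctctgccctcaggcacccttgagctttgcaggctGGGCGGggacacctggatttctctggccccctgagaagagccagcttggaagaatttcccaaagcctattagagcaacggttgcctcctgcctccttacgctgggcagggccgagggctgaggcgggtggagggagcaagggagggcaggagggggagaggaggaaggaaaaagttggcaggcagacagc
Aqp3: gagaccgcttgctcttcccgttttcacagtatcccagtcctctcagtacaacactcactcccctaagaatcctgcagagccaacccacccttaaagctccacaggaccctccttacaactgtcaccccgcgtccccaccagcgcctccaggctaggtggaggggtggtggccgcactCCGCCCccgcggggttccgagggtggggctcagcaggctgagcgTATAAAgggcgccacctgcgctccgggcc
Aqp11: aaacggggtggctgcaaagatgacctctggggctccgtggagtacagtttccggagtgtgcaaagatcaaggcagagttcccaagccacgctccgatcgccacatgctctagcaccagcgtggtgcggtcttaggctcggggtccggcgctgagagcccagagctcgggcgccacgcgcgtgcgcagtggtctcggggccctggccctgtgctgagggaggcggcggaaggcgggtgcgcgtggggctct
Aqp2: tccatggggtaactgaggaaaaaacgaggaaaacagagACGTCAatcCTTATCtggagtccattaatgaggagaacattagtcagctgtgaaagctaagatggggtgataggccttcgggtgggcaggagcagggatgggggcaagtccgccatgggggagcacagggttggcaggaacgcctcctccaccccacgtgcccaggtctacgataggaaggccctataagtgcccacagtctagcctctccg
In the Aqp2 run the TGACGT match is on the opposite strand, so its reverse complement is printed, and it begins 212 bases before the start. This motif is present in 6.47% of the 32851 promoter windows of that length. A GATAAG match follows at 203 bases on the opposite strand, a motif in 6.55% of windows. The Aqp3 run holds TATAAA 29 bases before the start (in 12.4% of windows) and GGGCGG on the opposite strand at 73 bases (in 32.7%). The Aqp1 run holds GGGCGG at 190 bases, and the Aqp11 run holds none of the 4 motifs. The 3 genes that fell at 8 weeks share no motif of these 4.

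Aqp11 showed the largest strain difference of the 8 genes at 8 weeks. Its signal in the 3 ICR arrays was 614, 575 and 621, and in the 3 ICGN arrays 251, 329 and 301. The highest ICGN array thus stood well below the lowest ICR array. At 4 weeks the ICR arrays read 629.7, 484 and 631 and the ICGN arrays 495, 502 and 553, which overlap. The log2 fold change was -0.84 ± 0.13 at 8 weeks (1.79-fold lower, limma adjusted p = 6.5e-05) and -0.14 ± 0.13 at 4 weeks (limma adjusted p = 0.659, 95% confidence interval -0.42 to 0.14). The difference between these 2 strain differences passed the test itself, at -0.69 ± 0.19 (limma adjusted p = 0.0151). Aqp11 was the only one of the 8 genes called in that interaction, in which 7.88% of all tested genes were called, 2.2% upward and 5.68% downward. The other tested probe set of Aqp11 has the suffix _x_at, which was ranked last in choosing a probe set for a gene. That probe set fell at 8 weeks too, with 279, 309 and 327 in ICR against 166, 176 and 158 in ICGN (log2 fold change -0.69 ± 0.14, limma adjusted p = 6.96e-04 over all tested probe sets). Over all probe sets 26.7% were called at 8 weeks. Its interaction, -0.44 ± 0.20, did not pass (limma adjusted p = 0.113), so the 2 probe sets gave the same sign of the interaction and 1 of them passed.

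Aqp1, the constitutive water channel of the proximal tubule, fell at 8 weeks by less. The ICR arrays held 5285, 6239.6 and 6247, and the ICGN arrays 3742, 3889.8 and 4325. All ICGN arrays lay below all ICR arrays at that age. At 4 weeks ICR (3932, 4469.8 and 4521) and ICGN (3966, 4051 and 4751) overlapped almost entirely. The log2 fold change was -0.38 ± 0.12 at 8 weeks (1.30-fold lower, limma adjusted p = 0.00233) and -0.0011 ± 0.12 at 4 weeks (limma adjusted p = 0.967, 95% confidence interval -0.26 to 0.25). The interaction, -0.38 ± 0.17, did not pass (limma adjusted p = 0.0587), so a difference between the ages in the strain effect was not shown for Aqp1. The 8-week call was lost under quantile normalization, at a log2 fold change of -0.17 (limma adjusted p = 0.122).

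Other genes of the cells that hold Aqp1 moved at the same age. Of 16 proximal tubule genes 0 rose and 10 fell at 8 weeks, with a median of -0.34, the largest falls being those of the organic anion transporter gene Slc22a6 (-0.95), the dicarboxylate transporter gene Slc13a3 (-0.77) and the glucose transporter gene Slc5a2 (-0.74). The summed signal of that list was 112453 to 133556 in ICR and 71201 to 89816 in ICGN at 8 weeks. Within each array, log2 Aqp1 minus the mean log2 of the 16 genes was -0.14 ± 0.14 in ICR and -0.17 ± 0.15 in ICGN (SD, n = 3, exact permutation test, p = 0.9, two-sided, in a design that allows no p under 0.1). Aqp1 is also expressed in renal endothelium and red cells. Of 10 endothelial genes 9 fell and 0 rose at 8 weeks (median -0.40), led by the VEGF receptor genes Kdr (-0.95) and Flt1 (-0.70) and by Ehd3 (-0.67). Their summed signal was 5827 to 6881 in ICR and 3865 to 4556 in ICGN. The red cell list had 8 entries, 4 of them named by the annotation and 2 tested, Alas2 and Slc25a37, which fell by 1.10 and 0.61 on the log2 scale, with summed signals of 567 to 673 in ICR and 260.1 to 375 in ICGN. At 4 weeks 0 of the 16 proximal tubule and 0 of the 10 endothelial genes were called by limma (4 and 1 at an unadjusted p under 0.05), while Alas2 fell (-0.96). The part of these cell types in the Aqp1 difference was not tested, and in whole cortex fewer cells of a type cannot be told apart from less RNA per cell.

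Aqp7, the glycerol channel of the straight proximal tubule, did not pass the strain test at either age. At 4 weeks its arrays read 145, 114 and 128 in ICR and 142, 155 and 111 in ICGN. At 8 weeks they read 63.7, 95.1 and 81.4 in ICR and 79.7, 93.3 and 121 in ICGN, so the groups overlapped at both ages. The log2 fold change was 0.09 ± 0.19 at 4 weeks and 0.45 ± 0.19 at 8 weeks (limma adjusted p = 0.923 and 0.293). The other tested probe set of Aqp7 was not called either, at -0.11 and 0.20. On the deposited scale the 8-week value of 0.43 passed (limma adjusted p = 0.047). Other genes of the same segment fell at 8 weeks. Of 7 listed for the straight proximal tubule 6 fell and 0 rose, with a median of -1.32, including the organic anion transporter gene Slc22a7 (-3.27), the acyl-CoA synthetase gene Acsm3 (-1.79) and the oxysterol hydroxylase gene Cyp7b1 (-1.40). For Cyp7b1 the arrays of the strains overlapped (limma adjusted p = 0.0363). Genes of a glycerol handling list were lower as well. Of its 7 entries, some of them 2 names of 1 gene, 4 were named by the annotation and tested. The entries for glycerol kinase, Gyk and Gk, were not among them. All 4 tested genes fell at 8 weeks. The mitochondrial and cytosolic glycerol-3-phosphate dehydrogenase genes Gpd2 (-0.72) and Gpd1 (-0.62) and the triokinase gene Tkfc (-0.54) fell most. Aqp7 is abundant in fat, and an adipocyte list was read beside it. Of its 8 entries 6 were named and 4 tested, 2 of which fell at 8 weeks, Retn (-0.84) and Lipe (-0.50), with summed signals of 2187 to 4032 in ICR and 1487 to 2700.2 in ICGN. The leptin gene Lep lay above the array median on 0 of 12 arrays and Cidec on 1. Adipoq exceeded it on 9 (2.29 to 523), and the brightest probe set of Fabp4 on 12 (1307 to 4390).

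The vasopressin axis of the principal cell showed no called strain difference at either age in its receptor or its main target. Avpr2 read 344, 257 and 201 in ICR and 271, 230.2 and 169.7 in ICGN at 4 weeks. At 8 weeks it read 228, 182 and 216 in ICR and 182, 233 and 215 in ICGN. The groups overlapped at both ages, and the log2 fold changes were -0.22 ± 0.19 and 0.19 ± 0.19 (limma adjusted p = 0.643 and 0.983). Their 95% confidence intervals, -0.63 to 0.19 and -0.22 to 0.60, still hold differences of moderate size in either direction.

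Aqp2 read 1254, 1141 and 865 in ICR and 1638, 1468 and 981 in ICGN at 4 weeks. At 8 weeks it read 863, 786 and 385 in ICR and 440.1, 662 and 553 in ICGN. The strains overlapped at both ages. The log2 fold change was 0.33 ± 0.26 at 4 weeks (limma adjusted p = 0.672, 95% confidence interval -0.24 to 0.89) and -0.04 ± 0.26 at 8 weeks (limma adjusted p = 0.527, 95% confidence interval -0.61 to 0.52). Set against 10 principal cell genes in the same array, Aqp2 differed between the strains by 0.23 at 4 weeks and by -0.25 at 8 weeks on the log2 scale (exact permutation test, two-sided p = 0.3 and 0.4). Of those 10 genes 0 were called by limma at 4 weeks, 5 having an unadjusted p under 0.05 (median 0.36). At 8 weeks 1 fell, the sodium channel subunit gene Scnn1a (-0.25, 95% confidence interval -0.52 to 0.01), and 0 rose (median 0.27). Their summed signal was 7010.0 to 7995 in ICR and 7417 to 8842 in ICGN at 4 weeks, and 5521 to 6116 and 5383 to 6545 at 8 weeks.

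Aqp3, the basolateral exit channel, was the only one of Avpr2, Aqp2, Aqp3 and Aqp4 that fell between the strains. Its main probe set read 1079.9, 1336 and 1032 in ICR at 8 weeks and 558, 785 and 734 in ICGN. All 3 ICGN arrays were below all 3 ICR arrays. At 4 weeks it read 403, 618 and 641 in ICR and 528, 523 and 570.2 in ICGN, with the ICGN arrays inside the ICR range. The log2 fold change was -0.54 ± 0.17 at 8 weeks (1.46-fold lower, limma adjusted p = 0.00505) and 0.01 ± 0.17 at 4 weeks (limma adjusted p = 0.992). The interaction of -0.55 ± 0.25 did not pass (limma adjusted p = 0.0801). The 8-week call was lost under quantile normalization, at -0.44 (limma adjusted p = 0.0527). The other 2 tested probe sets of Aqp3 had the same sign at 8 weeks but did not pass. One read 353, 679.9 and 399 in ICR against 249.7, 317 and 340.3 in ICGN (-0.45 ± 0.25, limma adjusted p = 0.0847), and the other 363, 383 and 361 against 199.9, 300.1 and 303 (-0.33 ± 0.18, limma adjusted p = 0.0617). In both of them the strains did not overlap.

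**Figure D2:**
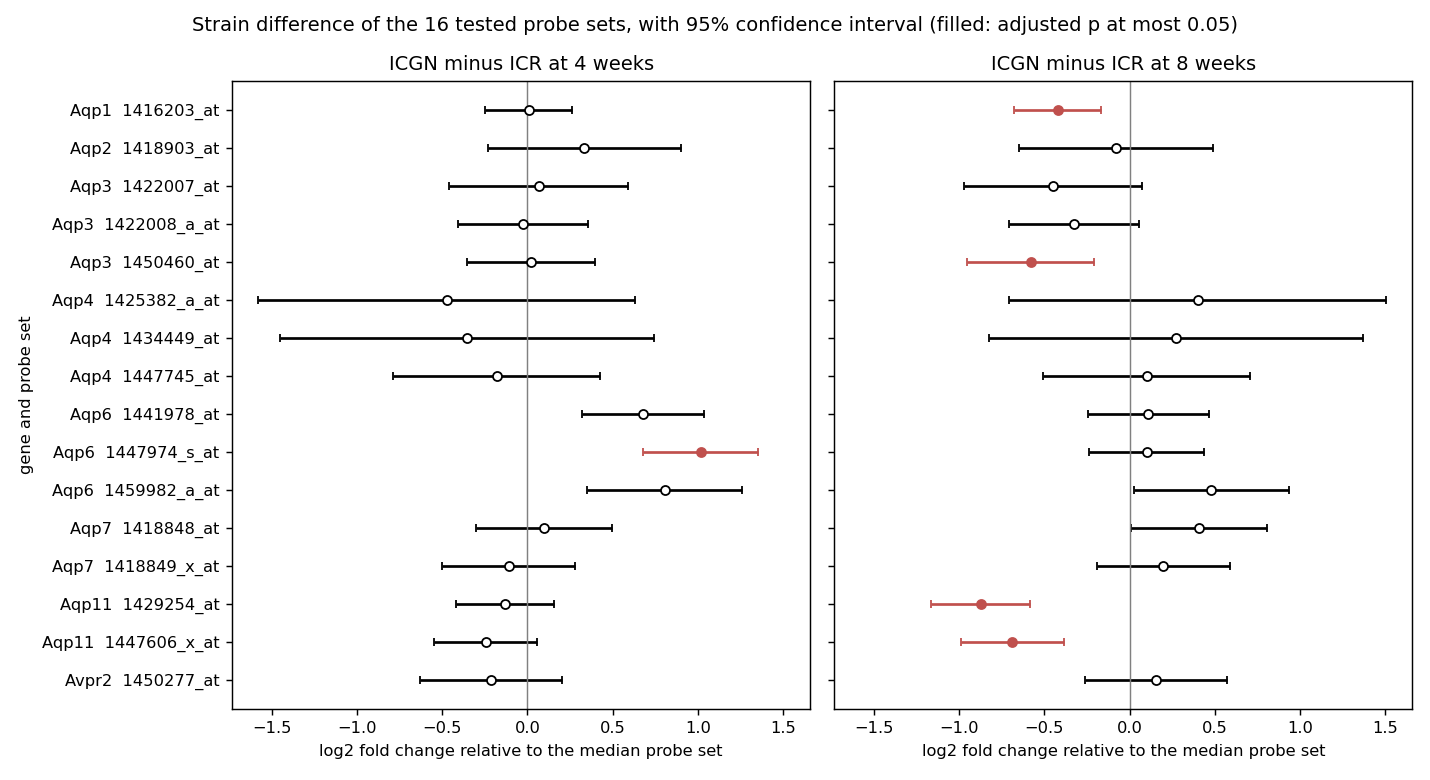
Log2 fold change of ICGN against ICR, relative to the median probe set (x axis), for the 16 tested probe sets (y axis) at 4 weeks (left) and 8 weeks (right). Bars are 95% confidence intervals from all 12 arrays, and filled points passed an adjusted p of 0.05. All 3 Aqp6 probe sets lie to the right at 4 weeks, and all Aqp3 and Aqp11 probe sets lie to the left at 8 weeks.

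Aqp4, the other basolateral channel, varied more within groups than nearly all genes of the array. Its arrays read 449, 429 and 177 in ICR and 306, 317 and 155 in ICGN at 4 weeks. At 8 weeks they read 268, 384 and 77.3 in ICR and 143, 449 and 167 in ICGN. The within-group SD was 0.85 on the log2 scale, larger than that of 99.5% of tested genes, whose median was 0.19. For comparison the SD was 0.42 for Aqp2 (larger than that of 92.6% of genes), 0.28 for Avpr2, 0.15 for Aqp11 and 0.13 for Aqp1. The strain differences of Aqp4, -0.37 ± 0.51 at 4 weeks and 0.31 ± 0.51 at 8 weeks, did not pass (limma adjusted p = 0.810 and 0.872), and the interval at 8 weeks ran from -0.78 to 1.40. Its other 2 tested probe sets were likewise not called at either age.

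Replicate 3 held the lowest Aqp4 signal of its group in 3 of 4 groups and the lowest Aqp2 signal in 3 of 4. The exception for both was ICGN at 8 weeks, where replicate 1 was lowest. Replicate 3 was lowest in 2 of 4 groups for Aqp6 and Avpr2, in 1 of 4 for Aqp3 and Aqp7, and in 0 of 4 for Aqp1 and Aqp11. The share over all tested genes was not counted. The summed signal of the 6 inner medulla and urothelium genes was lowest in replicate 3 in 4 of 4 groups. It was 581, 518 and 434 in ICR and 528, 490.1 and 258 in ICGN at 4 weeks, and 393, 478 and 367 in ICR and 361, 355 and 271 in ICGN at 8 weeks, for replicates 1, 2 and 3 in turn. Krt5 ran from 26.4 to 67.4 and Upk1a from 53.5 to 92.1, beside the common array median of 40.4. The highest signals over all probe sets of the others were 123 for Upk2, 135 for Upk3a, 151 for Slc14a2 and 238 for Upk1b. The part of background signal in this order was not tested. None of these 6 genes was called by limma between the strains at either age (0 and 1 at an unadjusted p under 0.05), and the list median was -0.20 at both. The part of medullary tissue in the spread of Aqp4 and Aqp2 was not tested.

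**Figure D3:**
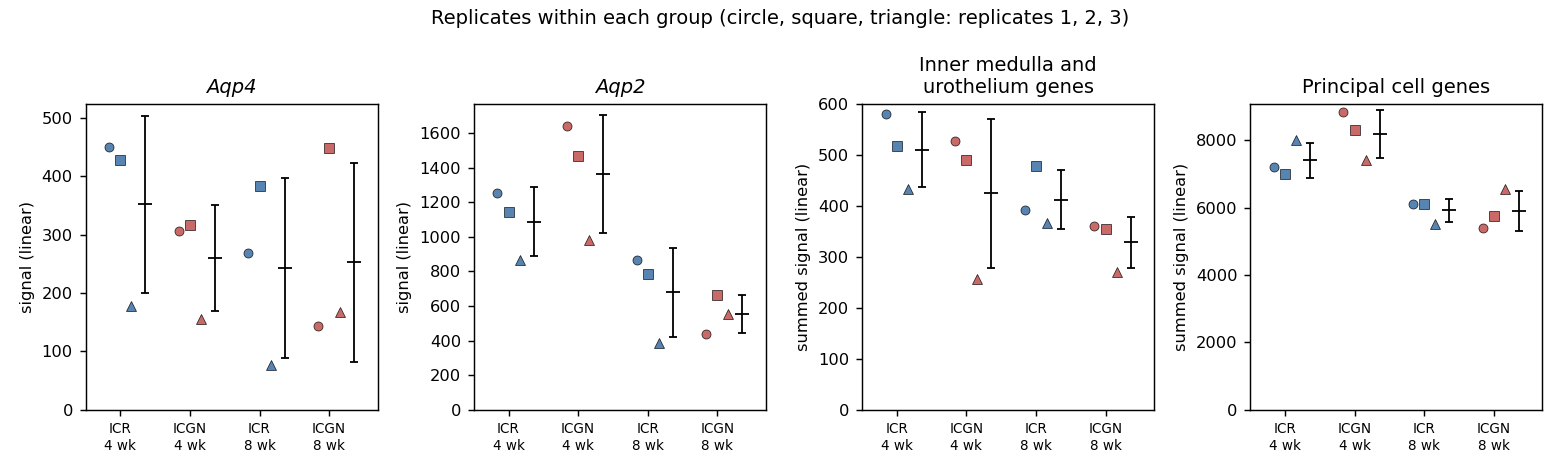
Signal of Aqp4 and Aqp2 and summed signal of 6 inner medulla and urothelium genes and of 10 principal cell genes (linear, y axes) in each array by group (x axis). Circles, squares and triangles are replicates 1, 2 and 3, and bars give the mean and 1 SD (n = 3). The triangles are lowest in 3 of 4 groups for Aqp4 and Aqp2, in 4 of 4 for the inner medulla list and in 2 of 4 for the principal cell list.

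Aqp6, the vesicle channel of intercalated cells, was the one gene of the 8 that was higher in ICGN, and this at 4 weeks. Its main probe set read 343, 421 and 333 in ICR and 662, 656 and 439.6 in ICGN at that age. The lowest ICGN array lay just above the highest ICR array. At 8 weeks it read 254, 204 and 221 in ICR and 209, 199 and 254 in ICGN, which overlap. The log2 fold change was 0.67 ± 0.16 at 4 weeks (1.59-fold higher, limma adjusted p = 0.0422) and 0.15 ± 0.16 at 8 weeks (limma adjusted p = 0.878). Its interaction did not pass (-0.52 ± 0.23, limma adjusted p = 0.0764). Another probe set gave a larger difference at 4 weeks, with 136, 118 and 139 in ICR against 327, 288 and 204 in ICGN (1.02 ± 0.16, limma adjusted p = 0.00296 over all tested probe sets, 2.31% of which were called). In that probe set the interaction passed, at -0.91 ± 0.22 (limma adjusted p = 0.0207, where 4.42% of probe sets were called). The remaining tested probe set read 82.5, 56.4 and 73.8 in ICR and 166, 126 and 96.7 in ICGN (0.81 ± 0.21, limma adjusted p = 0.0763). In all 3 the strains did not overlap at 4 weeks. In the fit over all tested probe sets, used for the other 2, the main probe set did not pass (0.68 ± 0.17, limma adjusted p = 0.0569). Thus 1 of the 3 passed in that fit. The call of the main probe set in the fit over genes was near the threshold. It was lost without a filter on low values (adjusted p = 0.073), without the mean-variance trend, in a fit of the 4-week groups alone, with replicate number as a block, and without ICGN replicate 1 or 2 or ICR replicate 1 or 3 of 4 weeks or ICGN replicate 1 or 2 of 8 weeks, with adjusted p up to 0.199 over the 23 alternatives and a log2 fold change between 0.57 and 0.87.

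Genes of intercalated cells gave a mixed picture at 4 weeks. Of 12 entries 11 were tested, of which 2 rose, the proton pump subunit gene Atp6v0d2 (0.79) and the ammonia transporter gene Rhbg (0.61), and 1 fell, the pump subunit gene Atp6v0a4 (-1.01). Their median was 0.36, and the summed signal was 4364 to 5338 in ICR and 5318 to 5795 in ICGN. At 8 weeks 0 rose and 2 fell, Atp6v0a4 (-1.24) and the anion exchanger gene Slc4a1 (-0.27), with a median of 0.02 and summed signals of 4109 to 4229 in ICR and 3243 to 4275 in ICGN. The part of intercalated cell number in the Aqp6 difference was not tested.

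Beyond the channels, a list of vasopressin signalling and water channel traffic genes was read in the same fit. Of 28 entries 27 were tested. At 4 weeks 1 rose, the cyclic AMP phosphodiesterase gene Pde4b (0.55), and 0 fell, with a list median of -0.04. At 8 weeks 1 rose and 7 fell, with a median of 0.07, a count below the 34.6% called among all genes. Arrb2, which encodes the receptor-desensitising beta-arrestin 2 and is also abundant in leukocytes, rose by 1.17. That value comes from 1 of its 2 tested probe sets, which ran from 47.9 to 221 over the 12 arrays. The other ran only from 76.1 to 147. The adenylyl cyclase gene Adcy3 (-0.34), the vesicle motor gene Myo5b (-0.34) and the ubiquitin ligase gene Stub1 (-0.27) were the largest falls. Of 12 transcription factors of the collecting duct and of water channel genes 9 were tested. None was called by limma at 4 weeks (2 at an unadjusted p under 0.05), and at 8 weeks Elf3, an epithelial factor, rose (0.53). Of 5 tested tonicity response genes, those induced where the medulla is hypertonic, the taurine transporter gene Slc6a6 rose (0.76) and the heat shock gene Hspa1b fell (-1.44) at 4 weeks, and 0 were called by limma at 8 weeks (1 at an unadjusted p under 0.05). Among the 5 other aquaporin family genes on the array, Mip, Aqp5, Aqp8, Aqp9 and Aqp12, only Aqp8 was tested, with a highest signal of 50.9, and it was not called at either age.

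The age comparison asks how these genes differed between 4 and 8 weeks in each strain, with the limit on scaling given above. In ICR 2 of the 8 genes rose and 3 fell, where 28.8% of all tested genes were called, 18% higher and 10.7% lower. In ICGN 0 rose and 3 fell, where 19.3% were called, 6.44% higher and 12.8% lower. The ages did not overlap for 5 of the 8 genes in ICR and 3 in ICGN, against 42.1% and 37.9% of all tested genes. The 2 strains' age changes and the strain differences share arrays, so they are given side by side and not as separate evidence.

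Aqp2 and Aqp6 fell in both strains. Aqp2 went from 1087 ± 200.2 to 678 ± 257 in ICR (-0.83 ± 0.26, limma adjusted p = 0.0477) and from 1362 ± 341 to 552 ± 111 in ICGN (-1.20 ± 0.26, limma adjusted p = 0.00385). Its ICR call rested on single arrays and settings, being lost in 12 of 22 alternatives, among them no offset, no filter, and the omission of any ICR array of 4 weeks but replicate 3 (adjusted p 0.0165 to 0.239). Without replicate 3 of ICR at 8 weeks, the array with 385, the change was -0.43. Aqp6 went from 365 ± 48.0 to 227 ± 25.04 in ICR (-0.75 ± 0.16, limma adjusted p = 0.00691) and from 586 ± 127 to 221 ± 29.6 in ICGN (-1.27 ± 0.16, limma adjusted p = 8.2e-05). The other 2 Aqp6 probe sets did not pass in ICR (-0.13 and 0.05), and averaging the probe sets ended the ICR call (-0.26). In ICGN 1 of these 2 fell as well (-1.03 ± 0.16, limma adjusted p = 3.0e-04) and the other did not pass, with overlapping ages (-0.27 ± 0.21, limma adjusted p = 0.323). With the probe sets averaged, the ICGN change was -0.85 and still passed. Aqp2 and Aqp6 are separated on the chromosome only by Aqp5 among protein-coding genes. Principal cell genes also fell, 3 of 10 in ICR and 4 of 10 in ICGN with 0 higher in either, and their part in the Aqp2 change was not tested.

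Aqp3 and Aqp7 are direct neighbours on the chromosome. Aqp3 rose from 554 ± 131 to 1149 ± 163 (0.97 ± 0.17, 1.96-fold, limma adjusted p = 4.0e-04). In ICGN it went from 540.4 ± 25.9 to 692 ± 119 and did not pass (0.42 ± 0.17, limma adjusted p = 0.187). The other 2 tested Aqp3 probe sets rose in ICR too (0.68 ± 0.25 and 1.02 ± 0.18), and 1 of them also rose in ICGN (0.73 ± 0.18, limma adjusted p = 0.0159), with the ages not overlapping there, while the other did not pass (0.18 ± 0.25). Aqp7 fell in ICR from 129 ± 15.5 to 80.1 ± 15.7 (-0.72 ± 0.19, limma adjusted p = 0.0181) and in ICGN stood at 136 ± 22.6 and 97.9 ± 20.9 (-0.37 ± 0.19, limma adjusted p = 0.102). The other tested Aqp7 probe set did not pass in ICR (-0.38 ± 0.18, limma adjusted p = 0.241) or in ICGN (-0.06 ± 0.18). The Aqp7 call in ICR was lost without ICR replicate 1 of either age. Aqp1 rose in ICR from 4308 ± 326 to 5924 ± 553 (0.37 ± 0.12, limma adjusted p = 0.0103), a call lost without ICR replicate 1 of 4 weeks (adjusted p = 0.051), and in ICGN it stood at 4256 ± 431 and 3986 ± 303 (-0.01 ± 0.12). Aqp11 fell in ICGN from 517 ± 31.4 to 294 ± 39.6 (-0.72 ± 0.13, limma adjusted p = 8.1e-04), while in ICR it stood at 581 ± 84.6 and 603 ± 24.6 (-0.03 ± 0.13, limma adjusted p = 0.756). The other tested Aqp11 probe set differed here, rising in ICR (0.35 ± 0.14, limma adjusted p = 0.0367) and not passing in ICGN (-0.09 ± 0.14), where 27.1% and 18.7% of all tested probe sets were called. Avpr2 and Aqp4 were not called in either strain.

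**Figure D4:**
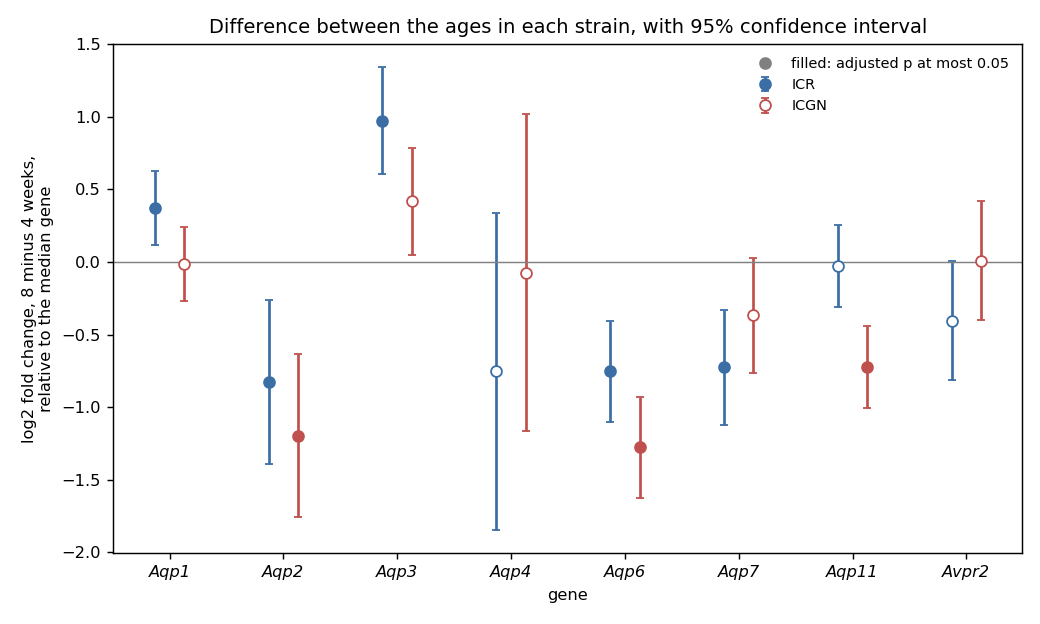
Log2 fold change between 8 and 4 weeks relative to the median gene (y axis) for the 8 genes (x axis) in ICR (blue) and ICGN (red). Bars are 95% confidence intervals, and filled points passed an adjusted p of 0.05. Aqp2 and Aqp6 lie below 0 in both strains, Aqp3 reaches 0.97 in ICR, and Aqp11 lies at -0.72 in ICGN.

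The genes whose values ran closest to each member over the 12 arrays were found by the root mean square difference of centred log2 values. For Aqp1 they were Ap2a2 (0.061), Preb (0.062) and Glg1 (0.068), against a spread of 0.24 for Aqp1 itself. For Aqp11 they were Mcrip2 (0.099), Rnf123 (0.11) and Rnpepl1 (0.12), against 0.43. Aqp3 lay nearest to Dynll2 (0.16), Prkca (0.18) and Fbxo3 (0.18), against 0.48. Aqp6 lay nearest to P2rx1 (0.21), Capn1 (0.24) and Sfrp2 (0.25), against 0.58, and Aqp2 to Fam110a (0.28), Capn1 (0.29) and Pgam2 (0.29), against 0.62. Aqp7 lay nearest to Plaat3 (0.10), Kank4 (0.13) and Hoxb5os (0.13), against 0.35. Avpr2 lay nearest to Slc4a11, Dipk2a and Gemin2 (0.16 each), against 0.26. Aqp4 lay nearest to Muc20 (0.46), Muc1 (0.50) and Ambp (0.50), against 0.74.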

How the data were processed

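Renal cortex RNA of 12 samples was measured on 1 Affymetrix GeneChip mouse genome array each, per the labels' protocols. The authors deposited linear signal intensities, 1 per probe set, which the submitters' processing notes credit to MAS5. Their mean after trimming 2% at each end was 100.0 at 4 weeks and 500.0 at 8 weeks. Each array was therefore scaled here to the common median of 40.4. Tests used log2(signal + 9), where 9 is near the lower quartile of all deposited values. Changes of dim genes are understated on this scale.

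Symbols came from the array annotation (1 symbol for 34958 probe sets, several for 932, none for 9211), and 34754 gene IDs matched RefSeq on GRCm38.p6. A probe set was tested if above its array median in at least 3 of 12 arrays. The brightest one on average represented its gene, with those of suffix _x_at ranked last. R 4.3.3 and limma 3.58.1 fitted 4 group means to all 12 arrays (8 residual degrees of freedom, mean-variance trend) over 12385 genes, and separately over 24790 probe sets. Medians of all genes were subtracted from printed fold changes, not from tests. The fit was also run on simulated arrays with independent noise and changes balanced in direction. That setting lacks the shift of the median gene seen at 8 weeks, so it cannot check the fit under such a shift. The members and gene lists were chosen with earlier results of these data known. The text names every member, up to 3 called genes per direction, list and strain comparison, and the 3 genes nearest to each member. Lep, Cidec, Adipoq, Fabp4, Krt5, Upk1a, Upk2, Upk3a, Slc14a2 and Upk1b are named beside their lists with their signals or array counts. They were chosen after their values were seen. Gyk and Gk are named as entries not tested. Same-numbered arrays of 2 groups correlated in their deviations between -0.09 and 0.09, and arrays of different numbers between -0.16 and 0.14. No pairing by number was thus shown, but with 3 arrays a group this check cannot exclude one.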

Additional observations from a re-analysis of the deposited data

Results flagged for a closer look

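The strain difference of Aqp11 at 8 weeks minus that at 4 weeks was -0.69 ± 0.19 on the log2 scale (limma adjusted p = 0.0151), so the 2 ages differed by a test of the difference itself. The other tested probe set of Aqp11 gave -0.44 (adjusted p = 0.113).

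The same difference between the ages passed in 1 of 3 tested probe sets of Aqp6, at -0.91 ± 0.22 (limma adjusted p = 0.0207 over all tested probe sets). In that fit the main probe set gave -0.56 (limma adjusted p = 0.105) and the remaining one -0.32 (limma adjusted p = 0.402). In the fit over genes the main probe set gave -0.52 (limma adjusted p = 0.0764).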

How the results depend on the processing

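The alternatives were 3 other scalings, 2 offsets, 2 filters, no mean-variance trend, only the groups compared, averaged probe sets, replicate number as a block, and the omission of each array in turn. All 3 genes called at 8 weeks, and the Aqp11 interaction, held when any 1 array was left out. Under quantile normalization 1 gene (Aqp11) was called at 8 weeks. At 4 weeks 0 were called without a filter, without the trend, with the 2 groups alone or with the replicate block, and 0 to 1 when an array was left out. The interaction called 2 genes (Aqp1, Aqp11) with the filter at the 75th percentile, 3 (Aqp1, Aqp3, Aqp11) with the replicate block, and 1 to 2 without 1 array. Whether the replicate numbers pair the samples is not known. The age change in ICR called 3 with averaged probe sets and 2 to 5 without 1 array. No called difference changed sign in any of these. Differences that were not called did: for Aqp1 at 4 weeks 0.0775 (quantile), 0.0010 (deposited scale), 0.0146 (75th percentile filter), 0.0011 (averaged probe sets) and -0.0749 to 0.0514 without 1 array. Aqp3 at 4 weeks was -0.00222 without a filter and -0.20 to 0.13 without 1 array, and Aqp7 -0.0124 with averaged probe sets and -0.0158 to 0.23 without 1 array. Aqp2 at 8 weeks was 0.0134 (quantile), 0.0328 (75th percentile filter) and -0.44 to 0.18 without 1 array, and Aqp4 -0.37 to 0.78. With age, Aqp11 in ICR was 0.18 (averaged probe sets) and -0.12 to 0.0361 without 1 array, and in ICGN Aqp1 was 0.0527 (quantile) and -0.0569 to 0.0604, Aqp4 -0.56 to 0.18 and Avpr2 -0.18 to 0.16. Aqp1 relative to proximal tubule genes at 8 weeks ran from -0.0826 to 0.0557 without 1 array. The cause of these changes was not tested. The deposited scale gives no age comparison, and the 75th percentile filter leaves out Aqp7.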
